A study of Mus musculus with 6 samples.

Results

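Oxidative phosphorylation genes encode the machinery with which mitochondria turn the oxidation of nutrients into ATP. A total of 96 such genes were found among the 22098 gene symbols of a table of RPKM values (read numbers per length of transcript and per library size) from mouse leukaemia cells. They were taken by name: symbols that begin with Nduf, Uqcr, Atp5, Sdh with a letter a to d, or Cox with a digit, together with Cyc1, Cycs and Romo1, without the Ndufaf and Sdhaf assembly factors. The rule uses names alone, and where a symbol had several transcripts (8 of the 96) the one with the highest mean stood for it. By role, 36 encode subunits of complex I, 4 of complex II, 9 of complex III, 20 of complex IV and 15 of complex V, 7 encode assembly factors of complex IV, and Cycs and Romo1 stand alone. The names also caught 3 genes, Atp5s, Atp5sl and Cox4nb, that share a prefix with subunits but are not counted as subunits.

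The cells were a culture model of pro-B acute lymphoblastic leukaemia. Whole bone marrow of C57BL/6 mice was infected with a retrovirus encoding the p185 form of the BCR-ABL kinase and, behind an IRES, YFP, and was then grown in vitro. Every group therefore carried the same oncogene, and the groups differed in the gene of Ikaros (Ikzf1), which encodes a DNA-binding regulator of lymphoid differentiation. They were the Ikaros ZnF1-/- mutant and the Ikaros ZnF4-/- mutant, called ZnF1 and ZnF4 mutant here, and wild type. Each of the 3 genotypes had 1 library at day 21 and 1 at day 28 of culture, so there were 6 libraries and 2 for each genotype. Nothing in the labels tells whether the days were separate cultures. The p-values hence cover the spread between these libraries alone, which may be technical, and traits of a culture and of its genotype cannot be told apart.

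Electrons from NADH enter the respiratory chain at complex I and those from succinate at complex II. They pass through complex III and the carrier cytochrome c to complex IV, which reduces oxygen, while complexes I, III and IV pump protons. The proton gradient drives complex V, the ATP synthase. Most subunits are encoded in the nucleus, and several complex IV subunits exist as a common form and a form known from heart, skeletal muscle, testis or lung. NRF1, the Ets factor GABP and YY1 are transcription factors known to act at promoters of many of these nuclear genes.

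The letters of those factors' core sites were searched in RefSeq promoter windows of build GRCm38.p6, from 250 bases before to 50 bases after the start, on both strands. The RPKM values rest on mm9, so the windows serve only as sequence. Windows were used for 77 members. Member windows on a chromosome that was left out are not among them. No such step was applied to the tested genes and all genes, so the shares rest on unlike sets. The NRF1 core GCATGCGC was found in 11 of them (14.3%), against 6.2% of the 8923 tested genes with a window and 3.0% of all 27025 genes with one. The YY1 core AAGATGGC was found in 12 members (15.6%), against 5.7% of tested genes and 3.2% of all genes. The Ets core CCGGAAG was found in 20 members (26.0%), against 21.4% of tested genes and 9.9% of all genes. The Sp1 box GGGCGG was found in 44.2% of the members, against 69.7% of tested genes and 38.2% of all genes, and TATAAA in 10.4%, against 8.5% of tested genes and 15.7% of all genes. None of the motifs searched contains another of them.

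The 120 bases just before the start are shown for 8 members named below, 5′ to 3′ on the coding strand. NRF1, Ets and YY1 core letters are in capitals on either strand. Of these members, Cycs was not tested, and Sdhb was called in no comparison without rescaling of the libraries. Sdhb (chr4:140961151-140961270, plus strand) and Cycs (chr6:50566570-50566689, minus strand) hold an NRF1 core. Romo1 (chr2:156144113-156144232, plus strand), Sdhd (chr9:50603850-50603969, minus strand) and Cox10 (chr11:64079473-64079592, minus strand) hold Ets cores. Atp5g3 (chr2:73911327-73911446, minus strand) and the tissue forms Cox6b2 (chr7:4753095-4753214, minus strand) and Cox7a1 (chr7:30184051-30184170, plus strand) hold none of these letters in this stretch.
Sdhb: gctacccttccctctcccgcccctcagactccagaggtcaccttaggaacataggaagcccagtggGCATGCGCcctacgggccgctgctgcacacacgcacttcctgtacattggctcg
Cycs: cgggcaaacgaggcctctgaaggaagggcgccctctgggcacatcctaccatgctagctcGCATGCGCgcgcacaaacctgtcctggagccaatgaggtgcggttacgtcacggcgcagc
Romo1: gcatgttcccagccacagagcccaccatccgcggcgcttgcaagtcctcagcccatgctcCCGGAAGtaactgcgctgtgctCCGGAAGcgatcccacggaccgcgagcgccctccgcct
Sdhd: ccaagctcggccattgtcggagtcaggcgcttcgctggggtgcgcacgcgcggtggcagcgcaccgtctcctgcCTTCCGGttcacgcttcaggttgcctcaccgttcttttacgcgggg
Cox10: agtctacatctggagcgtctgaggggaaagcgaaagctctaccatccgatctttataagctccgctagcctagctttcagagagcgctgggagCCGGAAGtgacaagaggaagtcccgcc
Atp5g3: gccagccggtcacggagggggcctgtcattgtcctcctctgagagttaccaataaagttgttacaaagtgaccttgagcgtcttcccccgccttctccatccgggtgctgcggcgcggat
Cox6b2: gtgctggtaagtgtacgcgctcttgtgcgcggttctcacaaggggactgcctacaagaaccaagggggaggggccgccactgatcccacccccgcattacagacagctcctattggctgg
Cox7a1: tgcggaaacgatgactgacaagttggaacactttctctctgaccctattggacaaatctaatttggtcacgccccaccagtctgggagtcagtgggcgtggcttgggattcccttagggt
Romo1 has 2 Ets cores in this stretch, and the other marked members have 1 core each. A match describes letters only.

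The genes of the respiratory chain were among the well expressed genes of these cells. Their summed level was 4936.8 RPKM at day 21 and 6377.6 at day 28 in ZnF1 libraries, 6076.0 and 6703.6 in ZnF4 libraries, and 6184.1 and 7124.0 in wild-type libraries. That was 1.79% and 2.17% of the summed RPKM of all symbols in ZnF1 libraries, 2.1% and 2.26% in ZnF4 libraries, and 2.18% and 2.44% in wild-type libraries. On both days the ZnF1 library had the lowest sum and the wild-type library the highest. Between 10401 and 11233 symbols reached 1 RPKM in a library, and the read depth behind the values is unknown. Ikzf1 itself was listed at 108 and 91.4 RPKM in ZnF1 libraries, 186 and 165.9 in ZnF4 libraries and 89.2 and 78.7 in wild-type libraries. A value over the whole gene does not check the loss of 1 zinc finger.

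The highest levels belonged to the catalytic head of the ATP synthase. Atp5b, its beta subunit, averaged 501.72 RPKM over the 6 libraries, and Atp5a1, its alpha subunit, averaged 453.73. Cox4i1, the common form of complex IV subunit 4, followed with 282.08, then Cox6b1 with 253.37 and Atp5g3 with 242.48. Atp5g3 is 1 of 3 genes for the c subunit of the proton-driven ring. Median levels over members were 52.78 RPKM for complex I, 104.48 for complex II, 95.1 for complex III, 16.17 for complex IV and 41.48 for complex V. The complex IV median covers 20 genes, among them tissue forms and paralogues of common subunits that were listed near 0.

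Some subunits that every respiring cell uses were listed close to 0. Cycs, cytochrome c, was listed at 0.2 and 0.2 RPKM in ZnF1 libraries, 0.2 and 0.2 in ZnF4 libraries and 0.4 and 0.3 in wild-type libraries. Atp5l averaged 0.28 RPKM, Atp5g2 0.52, the complex I gene Ndufs5 0.65, Cox7c 1.02 and the complex III gene Uqcrb 1.60. In an alignment of GENCODE transcripts of GRCm38, between 34.5% and 88.2% of the length of these 6 transcripts was matched by transcripts of other genes at an identity of at least 98%. Over all members, the median level was 53.03 RPKM for the 69 with under 20% of their length matched, 13.34 for the 24 with 20% to 79%, and 2.87 for the 3 with 80% or more. The sources used here do not state how reads with several positions were treated, and the part of such copies in these low values was not tested. The levels of Cycs, Atp5l, Atp5g2 and Ndufs5 are therefore uncertain, as are those of Ndufs3 (84.1% matched, 2.87 RPKM) and Cox16 (88.9% matched, 5.52 RPKM).

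**Figure D1:**
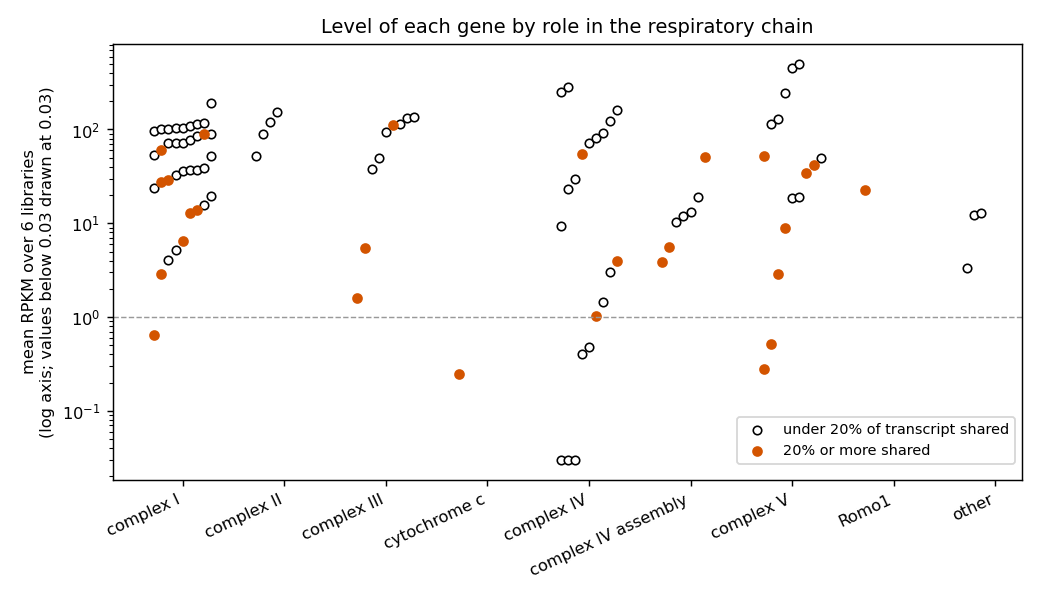
Mean RPKM over the 6 libraries (log axis) of each of the 96 genes, by role; filled points have at least 20% of their transcript matched at 98% identity by transcripts of other genes, and the dashed line marks 1 RPKM. Cytochrome c and several ubiquitous subunits with filled points lie near or under the line, far below Atp5b at 501.72 RPKM.

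A further 5 genes, paralogues of common subunits, were near 0 with at most 3.4% of their length matched by other genes. Cox7b2 and Cox8c were listed at 0 in all 6 libraries. Cox8b, the muscle form of subunit 8, reached at most 0.1 RPKM, Cox4i2, the lung form of subunit 4, at most 0.8, and Ndufa4l2, a paralogue of Ndufa4, at most 0.6. Their common counterparts Cox8a, Cox4i1 and Ndufa4 averaged 159.40, 282.08 and 91.97 RPKM. In all, 87 members reached 1 RPKM in at least 2 libraries and were tested, and 9 were not: Cycs, Atp5l, Atp5g2, Ndufs5, Cox4i2, Cox7b2, Cox8b, Cox8c and Ndufa4l2.

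In the ZnF1 mutant, 13 of the 87 tested genes were lower and 2 were higher than in wild type by limma with Benjamini-Hochberg adjustment over all 11379 tested genes, called at an adjusted p below 0.05. The lower share of 14.9% was near the 15.2% of all tested genes called lower. The higher share of 2.3% was below the 22.9% of all tested genes called higher. The members' median difference was -0.22 on the log2(RPKM + 1) scale, against -0.02 for all tested genes, and 78 of the 87 differences were negative, against 5961 of 11379. Rescaling the libraries moved these counts: 18 members were lower and 2 higher with quantile scaling, beside 2913 lower and 2047 higher of all tested genes, and 39 lower and 2 higher with median scaling, beside 3111 lower and 2313 higher. With quantile scaling the members' median was -0.17 against -0.12 for all tested genes, so their distance from all genes was -0.05 there, against -0.20 without rescaling and with median scaling. On this scale the change of a gene with low RPKM is understated. Within days, the members' median was -0.29 at day 21 with 78 negative, and -0.12 at day 28 with 61 negative.

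The largest called decrease was in the ATP synthase. Atp5g3 had 143.6 and 254.7 RPKM in ZnF1 libraries (day 21 and day 28, an order kept throughout), 183.5 and 283.3 in ZnF4 libraries and 241.4 and 348.4 in wild-type libraries. On each day the ZnF1 library was the lowest, although the ZnF1 library of day 28 lay above the wild-type library of day 21. Its difference was -0.60 ± 0.10 (log2 scale, SE; limma adjusted p = 0.009). Atp5b had 402.3 and 410.4 RPKM in ZnF1 libraries, 518.6 and 588.8 in ZnF4 libraries and 551.2 and 539.0 in wild-type libraries. The ZnF1 values did not overlap the others, and the difference from wild type was -0.42 ± 0.10 (limma adjusted p = 0.0272). Atp5g1, another c subunit gene, fell by 0.36 on the log2 scale (limma adjusted p = 0.0318) at 2.4 and 2.0 RPKM in ZnF1 libraries against 3.4 and 2.8 in wild-type libraries, with 69% of its transcript matched by other genes. Atp5a1 had 403.6 and 392.0 RPKM in ZnF1 libraries and 473.8 and 508.2 in wild-type libraries, a difference of -0.30 that was not called. All 13 tested complex V genes had negative differences, or 11 of 13 with quantile scaling, and 3 were called.

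In complex I all 35 tested genes had negative differences, or 31 of 35 with quantile scaling, with a median of -0.23, and 6 were called. Ndufs8, a subunit that carries iron-sulfur clusters, had 80.3 and 83.5 RPKM in ZnF1 libraries, 103.5 and 113.4 in ZnF4 libraries and 113.5 and 106.1 in wild-type libraries. The ZnF1 values lay apart from the others, and the difference from wild type was -0.42 ± 0.08 (limma adjusted p = 0.0154). Ndufa12, an accessory subunit with 71.0% of its transcript matched by another gene, so that its level is uncertain, had 8.5 and 12.8 RPKM in ZnF1 libraries and 12.3 and 16.7 in wild-type libraries. These ranges overlapped across days, and within each day the ZnF1 library was lower (-0.42 ± 0.12, limma adjusted p = 0.0434). Ndufs1, the largest iron-sulfur subunit, had 30.7 and 32.7 RPKM in ZnF1 libraries and 38.4 and 41.4 in wild-type libraries (-0.32 ± 0.08, limma adjusted p = 0.0334). The remaining calls, Ndufs7 (-0.32), Ndufa10 (-0.31) and Ndufa1 (-0.22), are named after their values were seen. Ndufv1, which binds NADH, had a difference of -0.22 that was not called.

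Complexes II and III had 1 call each. Sdhd, a membrane anchor of complex II, had 77.8 and 86.5 RPKM in ZnF1 libraries, 80.8 and 90.5 in ZnF4 libraries and 97.1 and 101.5 in wild-type libraries. Both mutants lay below wild type on each day, with differences of -0.27 for the ZnF1 mutant (limma adjusted p = 0.0315) and -0.21 for the ZnF4 mutant (not called, limma adjusted p = 0.0976). Sdha and Sdhb, the catalytic pair of complex II, had differences of -0.21 and -0.25, and the anchor Sdhc 0.11, none of them called in the ZnF1 mutant. Cyc1, cytochrome c1 of complex III, had 75.5 and 86.8 RPKM in ZnF1 libraries, 92.7 and 109.7 in ZnF4 libraries and 100.2 and 105.7 in wild-type libraries. Its difference in the ZnF1 mutant was -0.34 ± 0.08 (limma adjusted p = 0.0207). Uqcrc1, a core protein of complex III, and Uqcrfs1, its Rieske iron-sulfur protein, had differences of -0.20 and -0.14 and were not called.

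Complex IV genes were called in both directions. Cox7a2, the common form of subunit 7a, was lower in the ZnF1 mutant by -0.28 (limma adjusted p = 0.0311), and the heme farnesyltransferase gene Cox10 by -0.32 (limma adjusted p = 0.0434). The 2 higher calls were tissue forms at low levels. Cox6a2, known from heart and skeletal muscle, had 2.1 and 2.9 RPKM in ZnF1 libraries, 0.6 and 2.6 in ZnF4 libraries and 0.2 and 0.3 in wild-type libraries. The ZnF1 values lay above wild type on both days, the ZnF4 library of day 21 was near wild type, and that of day 28 was near the ZnF1 libraries. Cox6a2 reached the 1 RPKM needed for testing in mutant libraries alone, so its difference of 1.48 in the ZnF1 mutant is a description and its call counts as no support. Cox6b2, known from testis, had 5.1 and 5.6 RPKM in ZnF1 libraries, 3.1 and 1.4 in ZnF4 libraries and 2.1 and 1.0 in wild-type libraries. The ZnF1 values lay above all others, with a difference from wild type of 1.35 ± 0.23 (limma adjusted p = 0.00934). The common forms Cox6a1 and Cox6b1, at 91.1 to 160.8 RPKM and 174.0 to 340.3 RPKM over the libraries, had differences of -0.30 and -0.34 and were not called. Itgad, whose annotated end overlaps Cox6a2 in GRCm38, was listed at 0.1 RPKM in 1 library and 0 in the others. Other genes looked up as neighbours of named members were not all near 0. Suv420h2 was at 19.4 to 37.5 RPKM over the libraries, Capns1 at 103.9 to 142.8 and Nfs1 at 13 to 15.8, while Il11 was at 0. The part of neighbouring genes in the values of named members was not tested. Since no strand-marking step is named, reads of overlapping genes cannot be told apart.

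**Figure D2:**
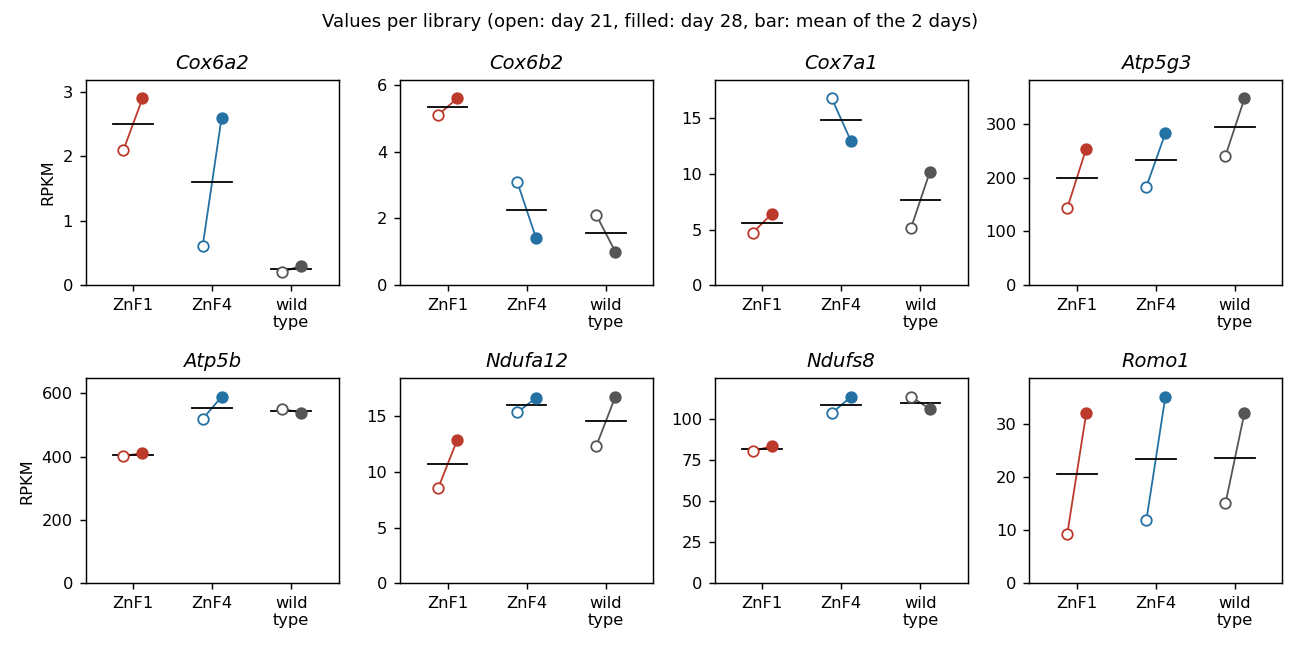
RPKM in each library for 8 respiratory chain genes, with the ZnF1 mutant, ZnF4 mutant and wild type from left to right; open points are day 21, filled points day 28, and bars the mean of both. Cox6a2 and Cox6b2 had their highest mean in the ZnF1 mutant and Cox7a1 in the ZnF4 mutant, Atp5g3, Atp5b and Ndufs8 had their lowest mean in the ZnF1 mutant, and Romo1 was higher at day 28 in all 3 genotypes.

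The number of lower calls moved with the libraries used. It was 0 when the day 21 library of the ZnF1 mutant or either wild-type library was left out, 3 without the day 28 library of the ZnF1 mutant, and 16 without either ZnF4 library. Over all tested genes the lower calls numbered between 132 and 305 in the fits without a ZnF1 or wild-type library, against 1730 with all 6. Of the higher calls, Cox6a2 was lost without either ZnF1 library or the wild-type library of day 28, and Cox6b2 without either wild-type library. In the same libraries the macrophage markers moved: all 11 (among them Cd14, Csf1r and C1qa) were called higher in the ZnF1 mutant, with sums of 2101.3 and 1976.9 RPKM in ZnF1 libraries, 213.2 and 277.5 in ZnF4 libraries and 526.5 and 335.5 in wild-type libraries. None of the 11 was at 0. Stromal and endothelial markers summed to 157.2 and 144.6 RPKM in ZnF1 libraries, 27.6 and 25.1 in ZnF4 libraries and 52.7 and 43.2 in wild-type libraries, with 8 of 9 tested called higher in the ZnF1 mutant and 1 of the 11 listed at 0 throughout. Proliferation genes, among them Mki67, Top2a and the Mcm genes, moved the other way: all 12 were called lower in the ZnF1 mutant, with sums of 943.8 and 936.3 RPKM in ZnF1 libraries, 1642.7 and 1531.5 in ZnF4 libraries and 1396.1 and 1355.6 in wild-type libraries. The pro-B markers summed to between 2623 and 3034.7 RPKM in the 6 libraries, which does not show the moves of single genes. Of these 10 genes, limma called 0 in the ZnF1 mutant against wild type, with 2 higher and 1 lower at an unadjusted p below 0.05. In the ZnF4 mutant against wild type 2 were called higher and 1 lower, with differences from -2.06 to 0.57. Against the ZnF1 mutant, the ZnF4 mutant had 2 called higher and 2 lower. The part of these cell types and of proliferation in the lower respiratory chain levels was not tested. In bulk RNA, fewer cells of a type and less RNA per cell cannot be told apart.

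Against wild type, the ZnF4 mutant had no called member in either direction by limma, where 10.9% of all tested genes were called higher and 7.32% lower. At an unadjusted p below 0.05, 5 members were higher and 7 lower. With quantile scaling 1 member (Cox6a2) was called higher and 4 lower, and with median scaling 0 and 3. The median difference was -0.02, against 0.02 for all tested genes, with 38 positive and 49 negative, and the 95% interval of a member's difference reached a median of 0.25 to either side. Cox6a2, tested through its mutant libraries alone, differed by 0.94, given as a description. Cox7a1, the heart and muscle form of subunit 7a, had 16.8 and 13.0 RPKM in ZnF4 libraries, 4.7 and 6.4 in ZnF1 libraries and 5.1 and 10.2 in wild-type libraries. The ZnF4 values lay above all others, and its difference from wild type was 0.93 with an interval of 0.22 to 1.64 (limma adjusted p = 0.0818). Cox6b1 was at the other end, with 195.9 and 240.8 RPKM in ZnF4 libraries against 257.2 and 340.3 in wild-type libraries, a difference of -0.44 with an interval of -0.82 to -0.07 (limma adjusted p = 0.103). Atp5g3 differed by -0.35 (limma adjusted p = 0.074, and 0.0315 with quantile scaling) and Atp5b by 0.02.

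Set directly against the ZnF1 mutant, the ZnF4 mutant had 22 members called higher and 1 lower by limma. The 25.3% called higher was near the 22.3% of all tested genes, and the 1.15% called lower was below the 23.2% of all tested genes. The median difference was 0.17, against 0.03 for all tested genes, and 0.13 against 0.12 with quantile scaling. The higher calls were 17 with quantile scaling, beside 3431 of all tested genes, and 33 with median scaling, beside 3329, against 2540 without rescaling. This comparison shares the ZnF1 libraries with the comparison against wild type, so the 2 are not independent. Complex I held 12 of the higher calls, complexes III and IV 3 each, complex V 2, and complex II and the complex IV assembly factors 1 each. Ndufa12, with the copy named above, had 15.3 and 16.6 RPKM in ZnF4 libraries against 8.5 and 12.8 in ZnF1 libraries, with no overlap and a difference of 0.57 ± 0.12 (limma adjusted p = 0.015). Ndufa5, another accessory subunit, had 59.2 and 59.4 RPKM in ZnF4 libraries against 31.8 and 50.2 in ZnF1 libraries, a difference of 0.56 ± 0.15 (limma adjusted p = 0.0337).

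Several subunits of the ATP synthase and of complexes I to IV had smaller called differences in the same contrast. Atp5b was higher in the ZnF4 mutant by 0.44 (limma adjusted p = 0.0193), Atp5g1 by 0.46, Ndufs8 by 0.40, Ndufv3 by 0.37 and Uqcrc1 by 0.36. Ndufs1 (0.31), Ndufv1 (0.35), Sdha (0.29), Cyc1 (0.31) and Cox7a2 (0.26) were also called higher. The tissue forms of complex IV were called in both directions. Cox7a1 was higher in the ZnF4 mutant by 1.28 ± 0.28 (limma adjusted p = 0.0167), with no overlap of the libraries given above. Cox6b2 was lower by -1.02 ± 0.23 (limma adjusted p = 0.018). The call of Cox7a1 was lost when either ZnF1 library or the ZnF4 library of day 21 was left out. The call of Cox6b2 held without the ZnF1 library of day 21 and was lost without each of the others. Without the ZnF1 library of day 21, no member was called higher, and 3 without the ZnF1 library of day 28, 5 without the ZnF4 library of day 21, 13 without that of day 28, and 6 without either wild-type library. Over all tested genes the higher calls were also fewer in each of these fits than with all 6 libraries. The macrophage, stromal and proliferation sums given above differed more between the ZnF4 and ZnF1 mutants than between either mutant and wild type. Their part in the differences between the mutants was not tested.

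**Figure D3:**
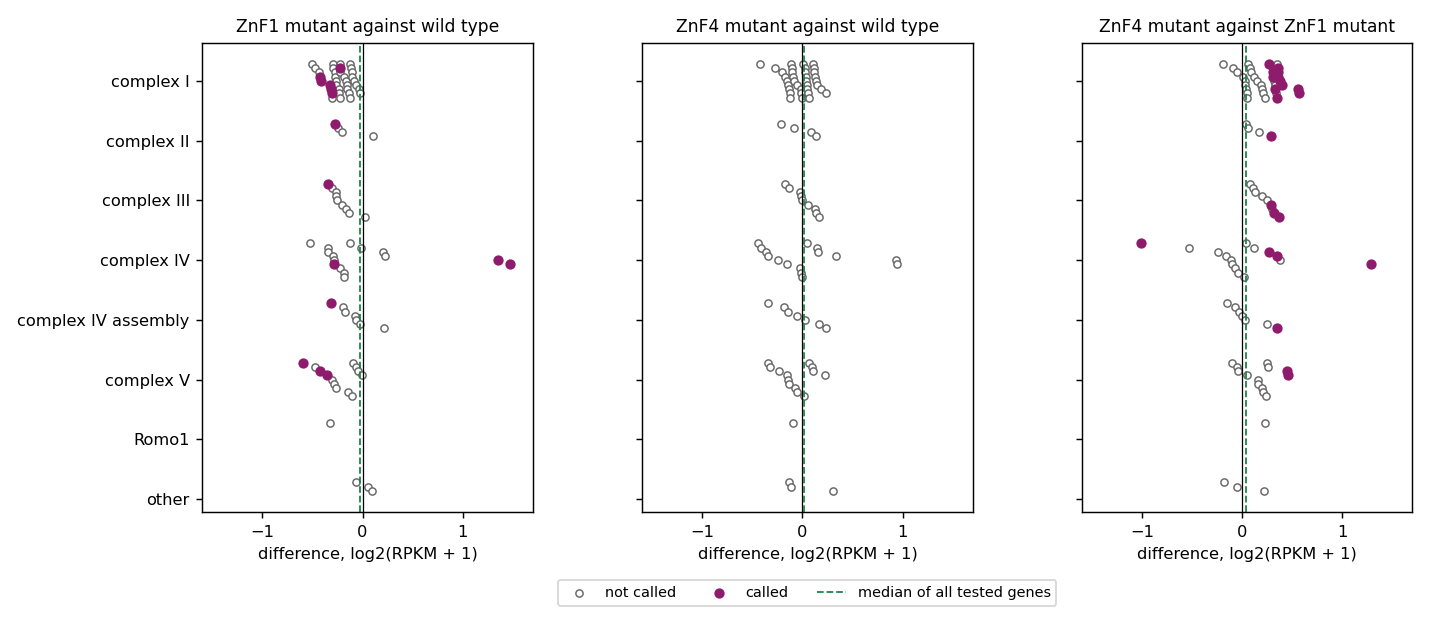
Difference of each of the 87 tested genes on the log2(RPKM + 1) scale in 3 genotype comparisons, by role; filled points were called by limma at an adjusted p below 0.05, the solid line marks 0 and the dashed line the median of all tested genes. All complex I and complex V points lie left of 0 for the ZnF1 mutant against wild type (31 of 35 and 11 of 13 with quantile scaling), no point is filled for the ZnF4 mutant against wild type (5 would be with quantile scaling and 3 with median scaling), and the far points belong to the tissue forms of complex IV.

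Other mitochondrial genes were read from lists chosen by function. In the ZnF1 mutant against wild type, all 18 genes of the TCA cycle, which feeds NADH and succinate to the chain, had negative differences on both days, and 7 (38.9%) were called lower, against 15.2% of all tested genes, with a median of -0.27. Idh3a, a subunit of the NAD-dependent isocitrate dehydrogenase, had 62.8 and 60.1 RPKM in ZnF1 libraries, 70.1 and 72.4 in ZnF4 libraries and 81.3 and 77.8 in wild-type libraries (difference in the ZnF1 mutant -0.37, limma adjusted p = 0.0132). Dlst (-0.28) and Ogdh (-0.30), subunits of the 2-oxoglutarate dehydrogenase, were also lower. Of 74 tested mitochondrial ribosomal protein genes, 18 (24.3%) were called lower and 1 higher, with a median of -0.22, and Mrps5 gave the largest decrease of the list (-0.55, limma adjusted p = 0.00882). Of the 18 tested protein import genes 4 (22.2%) were called lower, among them the outer membrane receptor Tomm70a (-0.36) and the channel Tomm40 (-0.31). Of 26 respiratory assembly factors 5 (19.2%) were called lower, among them Ecsit (-0.41), known for complex I assembly, and Lrpprc (-0.39), which stabilises mitochondrial mRNAs. Of the 8 tested carriers and ATP synthase partners 2 were called lower, the outer membrane channel Vdac1 (-0.27) and the carrier Ucp2 (-0.46). These counts moved with the scaling, as did the share of all tested genes. With quantile scaling the lower calls were 5 in the TCA cycle, 22 among ribosomal proteins, 4 in import, 14 among assembly factors and 1 among carriers. With median scaling they were 16, 38, 10, 13 and 3 in the same order. All 11379 tested genes had 2913 lower calls with quantile scaling and 3111 with median scaling. With quantile scaling the shares of the TCA cycle, ribosomal proteins and import were near that of all tested genes. That of assembly factors was above it and that of carriers below it. With median scaling the lower share of each of these lists was above that of all tested genes, so the reading depends on the scaling.

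Among 12 tested nuclear regulators of mitochondrial biogenesis, 4 (33.3%) were called lower and 1 (8.33%) higher in the ZnF1 mutant. Of all tested genes 15.2% were called lower and 22.9% higher. With quantile scaling 5 regulators were lower and 2 higher, beside 2913 and 2047 of all 11379 tested genes. With median scaling the counts were 7 and 0, beside 3111 and 2313. Nrf1 had 20.5 and 20.7 RPKM in ZnF1 libraries, 28.4 and 28.6 in ZnF4 libraries and 28.5 and 26.7 in wild-type libraries. The ZnF1 values lay below all others, with a difference from wild type of -0.40 (limma adjusted p = 0.00995). The GABP subunit genes Gabpa (-0.25, limma adjusted p = 0.0427) and Gabpb1 (-0.29, limma adjusted p = 0.0334) were lower too, and Nfe2l2, a regulator of the oxidative stress response, was higher (0.30). Esrrb, a nuclear receptor, had 0.5 and 0.5 RPKM in ZnF1 libraries and 3.9 and 3.4 in wild-type libraries, and was listed at 0 in both ZnF4 libraries. It reached the 1 RPKM needed for testing in wild-type libraries alone. Its values are therefore a description, and any call of Esrrb within the counts of this list counts as no support. Of the 13 respiratory chain genes called lower in the ZnF1 mutant, 11 had a promoter window, in which the NRF1 core was found for 0 and the Ets core for 3 (Cox10, Ndufs8 and Sdhd). Of the 60 other tested members with a window, 8 held the NRF1 core and 16 the Ets core.

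Of 9 tested genes of mitochondrial DNA upkeep and transcription, Tfb1m was called lower (-0.28) and Mterfd2 higher (0.62) in the ZnF1 mutant, and none of 7 tested genes of mitochondrial ROS defence was called there by limma, with 1 lower at an unadjusted p below 0.05. The lower calls in these lists were 5 and 1 with quantile scaling, beside 2913 of all 11379 tested genes. With median scaling they were 4 and 2, beside 3111. In the ZnF4 mutant against wild type, the TCA cycle, import and carrier lists had no limma call in either direction, with 2, 1 and 0 genes higher and 1, 1 and 0 lower at an unadjusted p below 0.05. The ribosomal protein list had 1 call each way, Mrps23 higher (0.43) and Mrpl16 lower (-0.33). Among assembly factors Pet112l was higher (0.60), and Sdhaf2 (-0.57) and Ecsit (-0.35) were lower. Prdx5, a mitochondrial peroxiredoxin, had 136.2 and 118.3 RPKM in ZnF4 libraries against 324.3 and 370.2 in wild-type libraries (-1.44, limma adjusted p = 0.00203). Esrra, a receptor known to drive respiratory chain genes, had 6.1 and 7.6 RPKM in ZnF4 libraries against 10.5 and 13.4 in wild-type libraries (-0.72, limma adjusted p = 0.00436), and Mterfd2 (-0.85) and Nfe2l2 (-0.45) were lower as well.

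In the ZnF4 mutant against the ZnF1 mutant, 20 of 74 ribosomal protein genes (27%) were called higher, against 22.3% of all tested genes, and 0 lower by limma, against 23.2%, with 36 higher and 1 lower at an unadjusted p below 0.05. With quantile scaling 29 of them were called higher and 1 lower, beside 3431 and 2359 of all 11379 tested genes. With median scaling these counts were 44 and 0, beside 3329 and 2431. All 18 TCA cycle genes had positive differences, or 17 of 18 with quantile scaling. Of them 6 (33.3%) were called higher, against 22.3% of all tested genes. With quantile scaling 7 were called and with median scaling 13, beside the same all-gene counts as above. Pdha1 (0.41), Idh3g (0.42) and Idh2 (0.38) came first by p. Mrpl2 (0.64), Timm44 (0.39), Lrpprc (0.36), Vdac1 (0.33) and Nrf1 (0.45) were among the higher calls of their lists. Prdx5 (-1.47), Mterfd2 (-1.46), Nfe2l2 (-0.75) and Esrra (-0.79) were among the lower ones.

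**Figure D4:**
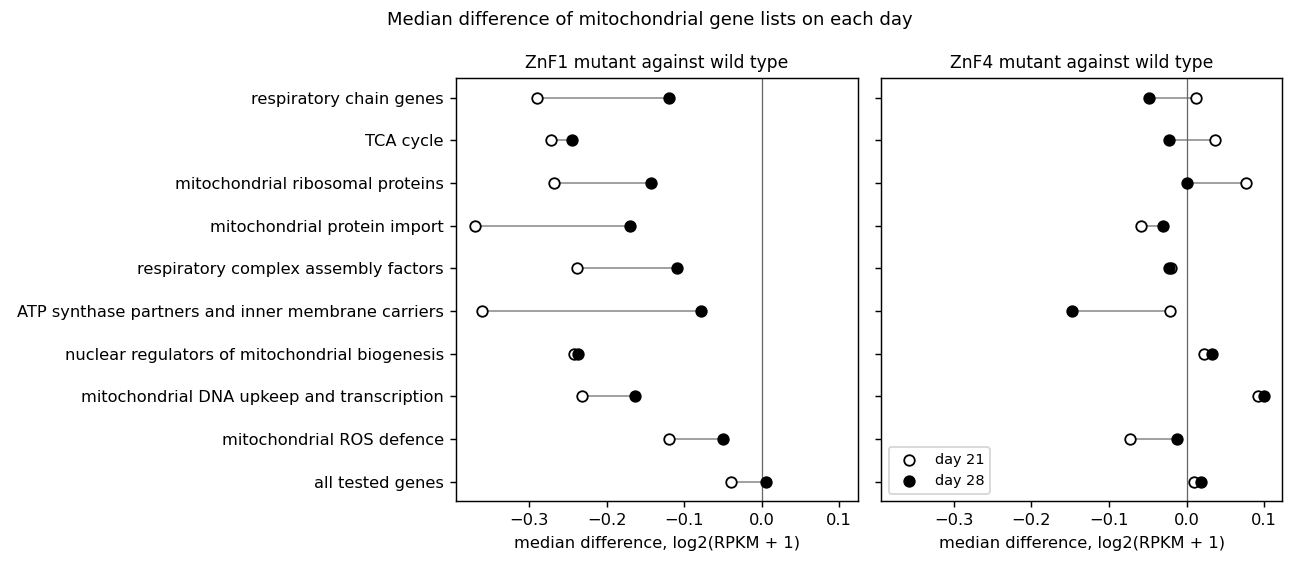
Median difference of the tested genes of each mitochondrial list on the log2(RPKM + 1) scale at day 21 (open) and day 28 (filled), for the ZnF1 mutant against wild type and the ZnF4 mutant against wild type. Against wild type, every mitochondrial list has a negative median on both days in the ZnF1 mutant, with the respiratory chain at -0.29 and -0.12, while the medians in the ZnF4 mutant lie between -0.15 and 0.10.

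From day 21 to day 28 no gene was called by limma in either direction, so the background was 0% called higher and 0% called lower over all tested genes. At an unadjusted p below 0.05, 34 of the 87 members were higher and 3 lower at day 28 (39.1% higher), against 1185 and 446 of all 11379 tested genes (10.4% higher). The members' median difference was 0.20, against 0.03 for all tested genes, and 75 of 87 were positive. Romo1, a small inner membrane protein known to modulate reactive oxygen species, had 9.3 RPKM at day 21 and 32.1 at day 28 in ZnF1 libraries, 11.9 and 35.2 in ZnF4 libraries and 15.1 and 32.2 in wild-type libraries. Day 28 was above day 21 in every genotype, with no overlap between days, and the difference was 1.41 ± 0.13 (not called, limma adjusted p = 0.154). All 4 Romo1 transcripts of the table, which share sequence, were higher at day 28 in each genotype.

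The members with the next largest values, named after they were seen, were not called either. They were Atp5g3 (0.66), the copper chaperone Cox17 (0.64), Atp5f1 (0.63), Ndufb6 (0.62), Ndufs6 (0.62), Atp5e (0.59), Ndufa4 (0.59) and Atp5d (0.58). Other genes matched 57.9% of the Cox17 transcript, 64.6% of Atp5f1, 39.0% of Ndufb6 and 26.0% of Romo1. Ndufb3 had the lowest value (-0.43), with 16.2 RPKM at day 21 and 10.4 at day 28 in ZnF1 libraries, 18.7 and 15.4 in ZnF4 libraries and 19.0 and 13.7 in wild-type libraries. It was lower at day 28 in all 3 genotypes. The core subunits Sdha (-0.02), Atp5a1 (0.02), Ndufs1 (0.03) and Atp5b (0.06) had 95% intervals that held 0.

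The day difference moved with transcript length. The 35 tested members shorter than 600 bases had median day differences of 0.54 in the ZnF1 mutant, 0.05 in the ZnF4 mutant and 0.31 in wild type, and the 10 members of 2000 bases and over had 0.06, 0.01 and 0.10. All 400 tested genes shorter than 600 bases showed medians of 0.35, 0.04 and 0.18, and the 7682 of 2000 bases and over 0.02, 0 and -0.01. Spearman's coefficient between length and day difference over the 87 members was -0.48 in the ZnF1 mutant, -0.06 in the ZnF4 mutant and -0.38 in wild type, a description over genes that share their libraries. The part of transcript length in the day difference was not tested.

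Spearman's coefficient between length and the difference of the ZnF1 mutant from wild type was 0.23 at day 21 and -0.10 at day 28 over the members. Over all tested genes it was 0.12 and 0.01. Members shorter than 600 bases had a median of -0.37 in the ZnF1 mutant against wild type at day 21 and -0.13 at day 28, against -0.22 and -0.01 for all tested genes of that length. Members of 2000 bases and over had -0.21 and -0.11, against -0.02 and 0. The medians of the long members rest on 10 genes and on libraries without rescaling. The part of transcript length in the genotype difference was not tested. In the ZnF4 mutant against wild type the short members had -0.02 at day 21 and -0.20 at day 28, against 0 and -0.14 for all tested genes of that length.

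**Figure D5:**
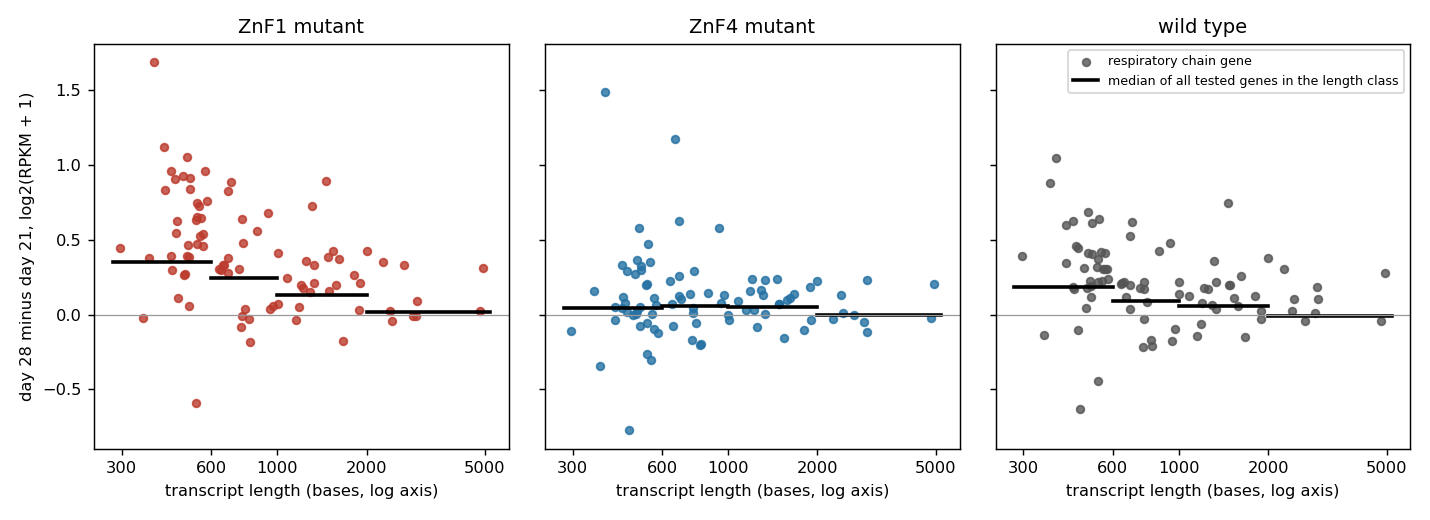
Difference of day 28 minus day 21 on the log2(RPKM + 1) scale against transcript length (log axis) for the 87 tested genes in the ZnF1 mutant, the ZnF4 mutant and wild type; black lines give the median of all tested genes in 4 length classes. Short transcripts lie above 0 in the ZnF1 mutant and wild type, where all tested genes under 600 bases have medians of 0.35 and 0.18, and scatter around 0 in the ZnF4 mutant.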

How the data were processed

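The authors deposited 1 table of RPKM values for 26531 RefSeq transcripts, made from poly(A) RNA with TopHat, bedtools and the mouse build mm9, per the submitters' processing notes, which give no versions. The values have 1 decimal, and 1 nameless row was left out. No read depth could be recovered from steps in the values, so no counting interval is given. Members, gene lists and tests were chosen with earlier results of these data known.

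Values were analysed as log2(RPKM + 1), a pseudocount of 1. The 11379 genes with at least 1 RPKM in at least 2 libraries were fitted with limma 3.58.1 (R 4.3.3), genotype and day as additive terms over all 6 libraries, with a mean-variance trend. There were 2 residual degrees of freedom and a prior of 3.22. Day is the replicate number and was kept as the block, because the labels give it. Changes between days correlated across genes between genotypes with r of 0.226, 0.433 and 0.249. Libraries shared at most 5.61% identical values. The steps were tested on simulated data.

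Members named were, per genotype comparison and direction, the 8 called with the largest difference, a fixed set of core subunits, and the extremes of level. From each list up to 3 called genes with the smallest p were taken. Similar transcripts were found with blastn 2.17.0 in GENCODE transcripts, and promoter windows came from RefSeq. Alternatives changed the pseudocount, filter, scaling, block, trend, row choice and libraries.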

Additional observations from a re-analysis of the deposited data

Results flagged for a closer look

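Cox7a1 and Uqcrh, a subunit of complex III, were the tested respiratory chain genes whose day differences went in opposite directions in different genotypes by at least 0.25 on the log2(RPKM + 1) scale. From day 21 to day 28 Cox7a1 changed by -0.35 in the ZnF4 mutant, by 0.38 in the ZnF1 mutant and by 0.88 in wild type. With 1 library per genotype and day the difference between these changes was not tested. The Cox7a1 values were 16.8 and 13.0 RPKM in ZnF4 libraries, 4.7 and 6.4 in ZnF1 libraries and 5.1 and 10.2 in wild-type libraries. Uqcrh changed by -0.30 in the ZnF4 mutant, with 53.1 and 42.8 RPKM, and by 0.53 in the ZnF1 mutant, with 37.4 and 54.3 RPKM.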

How the results depend on the processing

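Having 2 libraries per genotype, an unknown depth and values with 1 decimal limits what can be read, most of all below a few RPKM. Among the named members, no difference called in the reported fit turned its direction under any alternative run. Only the named members were checked for this. Uqcrb was at 0.03 and not called in the ZnF1 mutant against wild type. With quantile scaling it was at -0.41 and called lower (limma adjusted p = 0.0287). In the ZnF1 mutant against wild type, 2 higher calls became 1 other gene (Cox19) with no filter on low values, and 0 with a mean RPKM of at least 4, which left both genes untested, and between 0 and 2 with 1 library left out. The 13 lower calls became 39 with median scaling, and between 0 and 16 with 1 library left out. The median of -0.22 ranged between -0.31 and -0.10 with 1 library left out. Quantile scaling moved the median of all tested genes to -0.12 and median scaling to -0.12, where the members had -0.17 and -0.32, so relative to all genes the members were at -0.05 and -0.20. The split of all tested genes was then 2047 higher and 2913 lower with quantile scaling, 2313 and 3111 with median scaling and 1406 and 1550 with a mean RPKM of at least 4, against 2606 and 1730. In the ZnF4 mutant against wild type, 0 higher calls became 2 with a pseudocount of 0.1 and 1 with a mean RPKM of at least 4 or quantile scaling, and 0 to 1 with 1 library left out. The 0 lower calls became 4 with quantile scaling and 3 with median scaling. The median ranged between -0.099 and 0.077 with 1 library left out. In the ZnF4 mutant against the ZnF1 mutant, 22 higher calls became 33 with median scaling, 17 with quantile scaling, 7 with no filter and between 0 and 13 with 1 library left out. The 1 lower call became 0 with no filter or with a mean RPKM of at least 4, and 0 to 1 with 1 library left out. The cause of these moves was not tested.

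Without the replicate block (day), the lower calls in the ZnF1 mutant were 3 in place of 13 and the higher calls of the ZnF4 mutant against the ZnF1 mutant 10 in place of 22.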
